A study of Petrolisthes cinctipes with 164 samples.

Results

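Gene expression in the intertidal porcelain crab Petrolisthes cinctipes was compared between heat stressed and control crabs after 24 h of recovery. The members were chosen by their titles: 20 of the 164 channels of the series name the 24 h time point, and they came from 10 of the 82 crabs, 5 heat stressed and 5 control. The crabs were wild animals collected at Cape Arago, Oregon. Heat stressed crabs were warmed from 11 to 30 °C in 4 h, control crabs stayed at 11 °C for the same 4 h, and both then recovered in an aquarium at 11 °C. The labels give a separate crab number to each of the 10 animals, and no age, sex or tissue, so no tissue markers could be checked.

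Shore crabs of this kind warm quickly when the tide leaves them dry, and heat damages proteins inside their cells. Heated cells slow much of their normal gene expression and turn on genes for chaperones, the proteins that refold or hold damaged ones. Recovery is the time over which these changes fade or give way to others. A sample taken the following day thus shows which transcripts still differ long after the water is cool again. This is background; the files do not pair the probes with genes, and most can be given only by their plate position.

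The arrays were hybridised with a pair of dyes. The heat stressed and the control crab of equal replicate number shared 2 arrays, a and b, with Cy5 and Cy3 exchanged between them. Values are log2 intensities, and the differential is the heat stressed minus the control level within a pair, after the mean of both arrays of each crab was taken. A differential of 1 is therefore a 2-fold ratio of intensities. Medians of the 20 channels lay between 7.15 and 8.96, and the medians of both channels of 1 array lay at most 0.0614 apart. The number of arrays limits the precision. In both channels of array b of replicate 5 the description gives the opposite treatment to the title, and the titles were used.

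At 24 h, 23 of 13818 probes were higher in the heat stressed crabs (0.166%) and 11 were lower (0.0796%), by limma on the 5 paired differentials with Benjamini-Hochberg adjustment over all probes and a threshold of 0.05. The rises were the larger changes. They ran from 0.63 to 3.87 (1.55-fold to 14.7-fold) with a median of 1.80, or 3.48-fold, whereas the falls ran from -0.54 to -1.44 (1.46-fold to 2.71-fold) with a median of -0.84, or 1.79-fold. Over all probes the mean differential had a median of 0.008 and an SD of 0.209. The smallest adjusted p was 0.00267, and the probes next to the threshold lay at 0.0493 inside and 0.0551 outside. At an unadjusted p under 0.05 there were 277 probes higher and 1095 lower, a balance that did not hold with array b alone (1729 and 1444) or with the crabs as unpaired groups (39 and 38). The number of calls turned on single pairs of crabs. Without replicate 3 limma called 0 probes in either direction (252 higher and 746 lower at an unadjusted p under 0.05), without replicate 4 it called 9 higher and 3 lower, and without replicate 5 it called 19 higher and 2 lower. If array b of replicate 5 was read by its descriptions in place of its titles, 0 probes were called. With the crabs as unpaired groups, limma called 13 higher and 0 lower. In RNA from many cells, fewer cells of a type and less RNA per cell cannot be told apart.

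**Figure D1:**
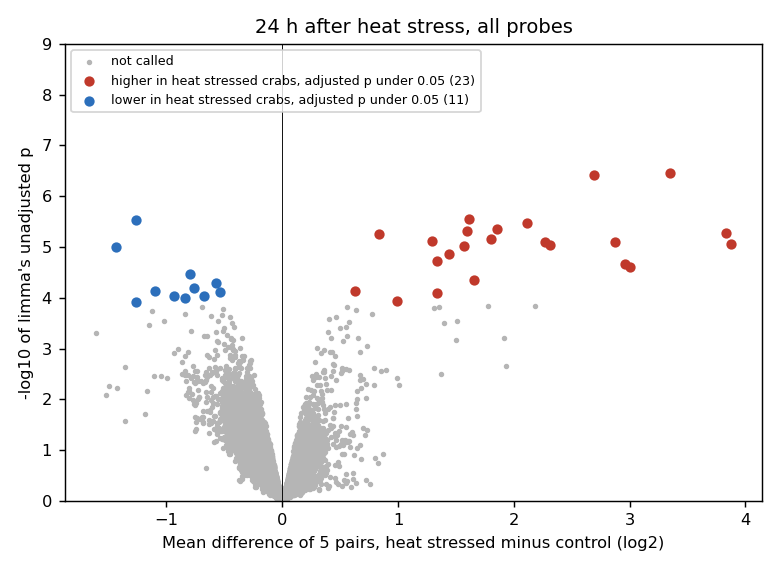
Mean differential of the 5 pairs at 24 h (horizontal axis, log2, heat stressed minus control) against -log10 of the unadjusted p of limma (vertical axis), 1 point per probe. The 23 probes called higher reach 3.87, while the 11 called lower end at -1.44.

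Large differentials lay mostly on the rising side. Of the 31 probes with a mean differential of at least 1, 20 were called, and of the 17 at -1 or lower, 4 were called. A differential of at least 2 was reached by 11 probes, and one of -2 or lower by 0. Among the 23 probes called higher, 3 had a mean differential below 1, 10 lay from 1 to 2, 6 from 2 to 3 and 4 above 3. Among the 11 called lower, 7 fell by less than 1.

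Pc04Ni13 and Pc01Hi06 had the largest rises among the called probes that kept 1 sign on all 10 arrays. In replicates 1 to 5, the level of Pc04Ni13 was 12.7, 12.6, 12.9, 12.0 and 12.4 in the heat stressed crabs. In the control crabs it was 10.1, 9.08, 8.62, 7.27 and 8.12. The heat stressed crabs lay close together (SD 0.33, n = 5) and the controls apart (SD 1.06, n = 5), with no overlap between the groups. The mean differential of Pc04Ni13 was 3.87 ± 0.86 (SD over pairs; limma SE 0.31, adjusted p = 0.0081), a 14.7-fold ratio. It was 4.61 when array b of replicate 1 and array a of replicate 2, described further on, were left out, and 2.98 with array b of replicate 5 read by its descriptions.

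Pc01Hi06 behaved much like it in these crabs. Its level was 12.5, 13.7, 13.4, 12.2 and 12.6 in the heat stressed crabs of replicates 1 to 5. In the controls its level was 9.88, 10.1, 9.35, 7.46 and 8.54. The groups did not overlap here either, and replicate 1 again had the smallest differential (2.63) and replicate 4 the largest (4.76). Pc01Hi06 had a mean differential of 3.84 ± 0.78 (SD over pairs; limma SE 0.28, adjusted p = 0.0081), and 4.55 and 2.96 in the same alternatives. Both calls were lost without replicate 3, at an adjusted p of 0.0765 each, and that of Pc04Ni13 also without replicate 4, at 0.0568. Over all other settings tried, the adjusted p of Pc04Ni13 lay between 7.91e-05 and 0.579 and that of Pc01Hi06 between 0.000212 and 0.586.

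Pc01Ha12 and Pc05Wm16 had the largest falls among the called probes of 1 sign on all 10 arrays. The level of Pc01Ha12 was 11.0, 8.83, 10.8, 9.12 and 8.83 in the heat stressed crabs of replicates 1 to 5. In the control crabs it was 12.3, 10.4, 12.4, 10.1 and 10.6. The crabs of the groups overlapped, since both crabs of replicates 1 and 3 were bright and the others dim, but the heat stressed crab was the lower one in each of the 5 pairs. Its mean differential was -1.44 ± 0.30 (SD over pairs; limma SE 0.12, adjusted p = 0.00829), a fall of 2.71-fold.

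Pc05Wm16 varied more from pair to pair. Its level was 9.45, 9.23, 9.80, 7.12 and 7.77 in the heat stressed crabs of replicates 1 to 5, and 11.0, 10.5, 11.5, 7.73 and 8.97 in the controls. Both crabs of replicate 4 were the dimmest of their group, and the differential there was only -0.61, against -1.20 to -1.70 in the other pairs. The mean differential of Pc05Wm16 was -1.27 ± 0.41 (SD over pairs; limma SE 0.15, adjusted p = 0.0493). It passed the threshold in only 1 of the 5 fits that left out a pair, that without replicate 4 (adjusted p = 0.0361). Among those 5 fits Pc01Ha12 was lost without replicate 3 alone (adjusted p = 0.0765). Over all 21 other settings the call of Pc01Ha12 was lost in 9 and that of Pc05Wm16 in 10, the unpaired fit among them, with adjusted p from 0.00172 to 1 and from 0.0067 to 1 by limma.

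**Figure D2:**
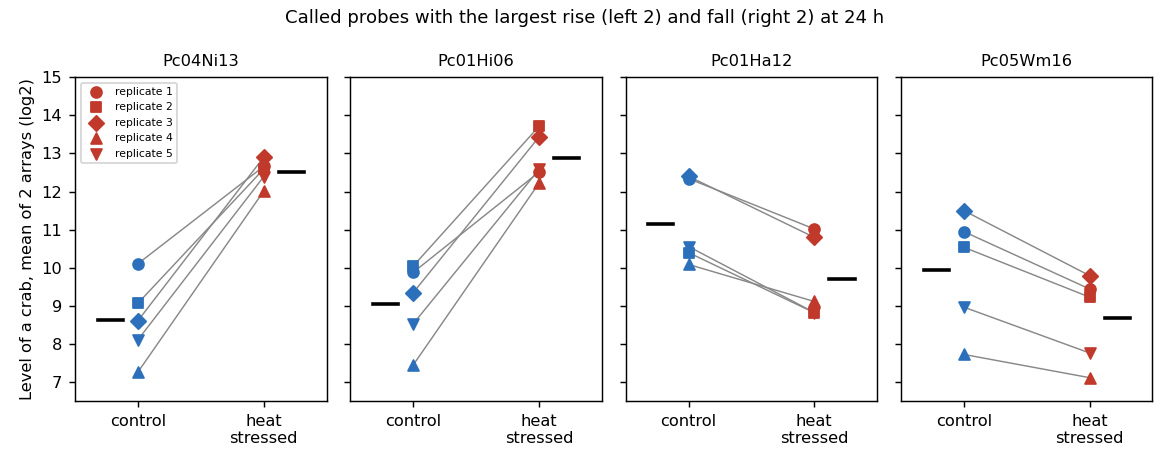
Level of each crab at 24 h (log2, mean of both arrays) for 4 called probes, Pc04Ni13 and Pc01Hi06 (largest rises) and Pc01Ha12 and Pc05Wm16 (largest falls). Lines join the crabs of a pair, marker shape gives the replicate, and black bars are group means; the heat stressed crabs of Pc04Ni13 lie between 12.0 and 12.9 and all above the controls, while those of Pc01Ha12 and Pc05Wm16 overlap with the controls and fall within every pair.

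The remaining called probes shared these features, in part because they were selected for them. The differential had 1 sign on all 10 arrays in 20 of the 23 probes called higher and in 10 of the 11 called lower, and on 9 arrays in the others; over all probes, 0.586% were higher and 1.06% lower on all 10 arrays. The heat stressed crabs all lay above the control crabs in 17 of the 23 (0.174% of all probes). The 5 heat stressed crabs lay below all controls in 0 of the 11 called lower (0.0217% of all probes). The smallest differential of any called probe in any pair was 0.41 on the rising side and -0.40 on the falling side. Since these probes were called from the same pairs, no test was made of this.

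Levels of different probes on an array cannot be ranked against each other, and the ranges are given as a description. Mean control levels ran from 6.87 to 9.95 among the 23 (median 8.20) and from 8.19 to 11.2 among the 11 (median 9.94), against a median of 7.71 over all probes. In the heat stressed crabs the medians were 10.4 and 8.86. The spread between pairs of the falling probes was small (median SD 0.19) beside that of the rising ones (0.36), and 0.21 over all probes. This follows in part from the selection, since a smaller change passes the threshold only with a smaller spread. In 19 of the 23 rising probes the SD between crabs was larger among controls than among heat stressed crabs (82.6%, against 56.4% of all probes).

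By pair, the median over the 23 rising probes was 1.41, 2.01, 1.95, 1.79 and 1.97 in replicates 1 to 5. Replicate 1 stood lowest, and 16 of the 23 probes had their smallest differential there. The median over the 11 falling probes was -0.78, -0.98, -0.84, -0.70 and -1.05. In both lists every pair had a median of the called sign, but this follows from calling the probes on these same pairs. Replicate 4 stood at the smaller end and replicate 5 at the larger end of the falls.

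Arrays a and b of a pair held the same crabs, but did not always give the same size of change. In replicate 1 the median differential of the 23 rising probes was 2.33 on array a and 0.53 on array b. In replicate 2 it was 1.21 on array a and 2.67 on array b. The falling probes followed, with -1.15 and -0.45 in replicate 1 and -0.49 and -1.44 in replicate 2. In replicates 3 and 5 the arrays lay closer, at 1.83 and 2.10 for the rising probes in replicate 3 and at 2.07 and 1.87 in replicate 5. In replicate 4 they were at 1.23 and 2.40.

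For Pc04Ni13 this difference lay mainly in the reading of the control crab. Brightness differed between channels of 24 h (medians from 7.15 to 8.96) and was not removed from these readings. They therefore do not tell which crab's level moved apart from the brightness of the array. The control crab of replicate 1 read 8.41 on array a and 11.8 on array b, while its heat stressed partner read 12.9 and 12.4. The control crab of replicate 2 read 10.9 on array a and 7.25 on array b, while its partner read 12.7 and 12.5. In both pairs the reading of the control crab was the one that moved for this probe, by more than 3 on the log2 scale. Other probes differed in this. For Pc01Hi06 both channels moved in each of these pairs. For Pc01Ha12 the control reading moved more in replicate 1, but in replicate 2 that of the heat stressed crab did. That crab read 10.5 on array a and 7.11 on array b, and its control 11.2 and 9.62. Over all probes, the differentials of arrays a and b correlated at -0.23, 0.43, 0.29, 0.33 and 0.69 in replicates 1 to 5, and over the 41 pairs of the series from -0.47 to 0.76 with a median of 0.27 (Pearson's r across probes, which are not independent; arrays of a pair share both crabs). When array b of replicate 1 and array a of replicate 2 were left out, 23 probes were called higher and 2 lower, of which 19 and 1 were among the calls above. What made these arrays differ was not tested.

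**Figure D3:**
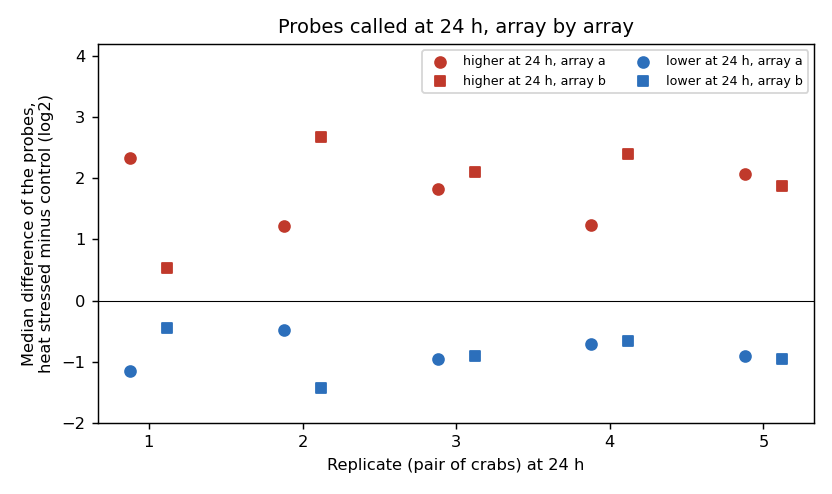
Median differential (vertical axis, log2, heat stressed minus control) of the 23 probes called higher (red) and the 11 called lower (blue) on array a (circles) and array b (squares) of each pair of crabs at 24 h. The rising probes reach only 0.53 on array b of replicate 1, against 2.33 on its array a.

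Gene names can be given to 6 probes. These names stand beside the probes in an illustration of the article on this series and were read by eye, so they may hold errors of reading. Pc01Hc13, Pc03Nd19, Pc03Ni14, Pc04Nk04 and Pc04Nk13 are named there as ATP synthase subunit a, the mitochondrially encoded part of the proton channel that drives ATP synthesis. Pc01Hd14 is named as cytochrome c oxidase subunit 2, a mitochondrially encoded subunit of the last complex of the respiratory chain, which takes up electrons from cytochrome c. The text of the article, however, places every gene of the chosen pattern in the ATP synthase group and mentions no cytochrome oxidase. The name read for Pc01Hd14 does not match that text and is the less certain one. The study chose these probes from this series, for a low differential in the 0.5 h crabs and for its course over the other times, so their direction at 24 h is not independent evidence, and the 5 ATP synthase probes may measure 1 transcript.

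At 24 h the mean of each of the 6 was below 0. Limma called 0 of the 6, although each had an unadjusted p under 0.05. The means ran from -0.62 for Pc03Nd19 to -0.87 for Pc04Nk04, or 1.54-fold to 1.83-fold, with adjusted p from 0.214 to 0.374. The level of Pc01Hc13 was 11.9, 11.6, 12.0, 11.3 and 10.2 in the heat stressed crabs of replicates 1 to 5, and 12.6, 12.0, 12.7, 12.1 and 11.8 in the controls. The groups overlapped, and the heat stressed crab was lower in every pair. Pc01Hc13 had a mean differential of -0.86 ± 0.46 (SD over 5 pairs; limma, 95% interval -1.27 to -0.45, adjusted p = 0.214).

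Replicate 5 carried the largest fall of the 5 ATP synthase probes, with a median of -1.64 (from -1.34 to -1.76), and replicate 2 the smallest, with a median of -0.32 and Pc04Nk13 at 0.049. Pc04Nk13 was below 0 in 4 of 5 pairs and on 8 of 10 arrays, and the other 4 ATP synthase probes were below 0 in 5 of 5 pairs and on 10 of 10 arrays. Replicate 5 is also the pair whose array b has the conflicting description. On both of its arrays the ATP synthase probes were low by title, with medians of -1.74 on array a and -1.51 on array b.

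Pc01Hd14, whose name was read as cytochrome c oxidase subunit 2, was ordered otherwise. Its level was 12.8, 13.0, 12.5, 12.5 and 12.2 in the heat stressed crabs of replicates 1 to 5, and 13.3, 13.2, 13.8, 13.9 and 13.1 in the controls. Every heat stressed crab lay below every control crab, as in 3 probes of all 13818. Its fall was largest in replicate 4, at -1.37, and smallest in replicate 2, at -0.11, and its mean was -0.84 ± 0.51 (SD over 5 pairs; limma, 95% interval -1.29 to -0.39, adjusted p = 0.253). With all 41 pairs sharing 1 estimate of the spread, 1 of the 6 probes was called at 24 h, Pc01Hd14.

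**Figure D4:**
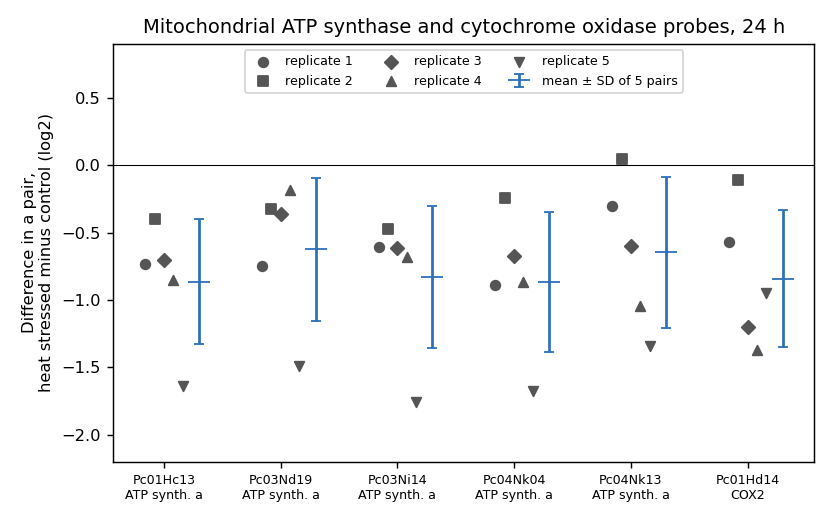
Differential of the 6 probes with a gene name in each of the 5 pairs at 24 h (vertical axis, log2, heat stressed minus control); marker shape gives the replicate, and the blue bar is the mean with its SD over pairs. ATP synth. a stands for ATP synthase subunit a and COX2 for cytochrome c oxidase subunit 2; replicate 5 lies lowest in the 5 ATP synthase probes, and only Pc04Nk13 in replicate 2 lies above 0.

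The 24 h time point was set beside the other 8 recovery times, which come from other crabs. Fitted in the same way on their own 3 to 5 pairs, limma called more probes higher than lower wherever it called any. At 1 h it called 30 higher (0.217%) and 0 lower (0%), and at 2 h 28 higher (0.203%) and 12 lower (0.0868%). The 12 h crabs gave 46 (0.333%) and 18 (0.13%), the 18 h crabs 34 (0.246%) and 19 (0.138%), and the 30 h crabs 21 (0.152%) and 0 (0%). At 0.5, 4 and 6 h it called 0 probes in either direction. An unadjusted p under 0.05 was reached by 175 probes lower at 1 h and 198 at 30 h. For 0.5, 4 and 6 h such probes numbered 357, 151 and 109 higher and 380, 406 and 217 lower.

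The rising probes of 24 h were mostly shared with other times. Probes without a gene name may measure the same transcript, so the 23 need not be 23 transcripts. Of the 23, the 12 h crabs also called 19, the 18 h crabs 16 and the 30 h crabs 15, and those of 1 and 2 h called 8 and 7. The 16 shared with 18 h are 69.6% of the 23 and 47.1% of the 34 of 18 h, and the 15 shared with 30 h are 65.2% of the 23 and 71.4% of the 21 of 30 h. At 18 and 30 h together 12 of the 23 were called, and 7 were also called at 1 h. The differential of each of the 23 lay above 0 in every pair at 2, 18 and 30 h. Their medians at 1, 2, 12, 18, 24 and 30 h were 1.75, 1.25, 1.34, 1.98, 1.80 and 1.77. The 4 h crabs gave 0.34, and at 0.5 and 6 h the median of single pairs ran from -1.39 to 1.73 and from -1.41 to 2.39, since pairs of opposite sign occur there.

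Pc04Ni13 and Pc01Hi06 followed this course. The means of Pc04Ni13 at 1, 2, 12, 18, 24 and 30 h were 3.62, 3.03, 3.46, 4.35, 3.87 and 4.15, and it was called at each of these times. Of the 23 rising probes, 3 were called at no other time, and their differentials at 24 h ran from 0.63 to 1.30. The 3 had means above 0 at each of the other 8 times too.

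The falling probes of 24 h were called at no other time, but at 0.5, 1, 4, 6 and 30 h no probe of any kind was called lower, and at the remaining times few were, so the 0 of 11 says nothing particular to them. Their medians at 18, 24 and 30 h were -0.62, -0.84 and -0.65. At 0.5, 1, 2, 4, 6 and 12 h they were -0.23, -0.07, -0.11, -0.36, 0.076 and -0.31, and at 6 h 8 of the 11 had a mean above 0. All 11 had a mean below 0 at 12, 18 and 30 h. At 30 h the pairs ran from a median of -2.29 to 0.37, a far wider range than the -1.05 to -0.70 of 24 h, and at 18 h from -1.87 to -0.13. Pc01Ha12 stood at -0.96 ± 1.35 (SD, n = 5 pairs) at 18 h, -1.44 ± 0.30 at 24 h and -0.97 ± 1.88 at 30 h. The 11 were selected at 24 h for a fall that was even across its pairs.

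**Figure D5:**
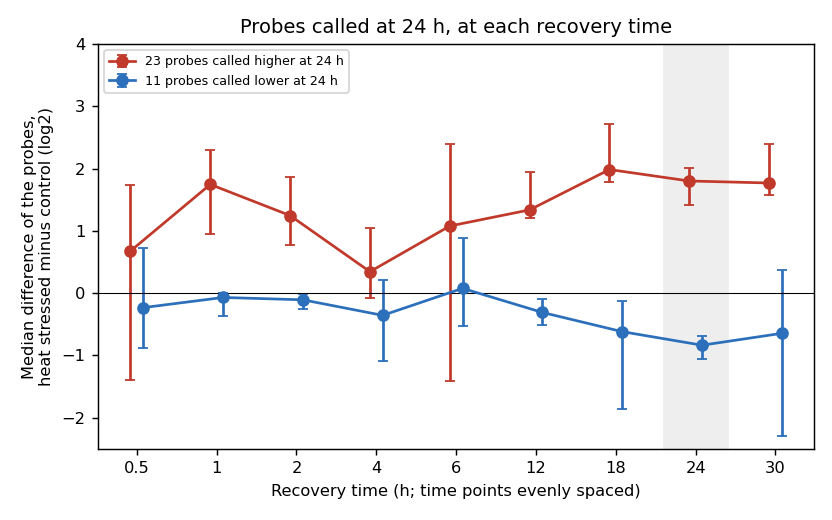
Median differential (vertical axis, log2, heat stressed minus control) at each recovery time (horizontal axis, evenly spaced) of the 23 probes called higher and the 11 called lower at 24 h; bars span the lowest and highest pair of crabs, and the shaded time is the one that chose the probes. The rising probes stand at 1.98, 1.80 and 1.77 at 18, 24 and 30 h, and the falling ones at -0.62, -0.84 and -0.65.

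The difference between time points was tested over all 41 pairs. Limma called 0 of 13818 probes (0%) for a differential at 24 h that differed from that at 18 h, from that at 30 h or from that at 1 h. At an unadjusted p under 0.05 there were 375, 654 and 589 probes, and the smallest adjusted p was 1, 0.939 and 0.0574. Each of these counts is below 0.05 of the 13818 probes, the share that this threshold passes on average where no probe differs. For Pc04Ni13 the differential at 24 h minus that at 18 h was -0.48 (95% interval -2.53 to 1.57), and for Pc01Ha12 it was -0.48 (-1.86 to 0.89), so changes of several fold were within the intervals. The calls of 24 h are therefore not shown to differ from those of 18, 30 or 1 h. Against 1 h the count depended on the pairs in the fit. With only the pairs of 24 h and 1 h limma called 24 probes. It called 37 without all pairs of 4 h, a pair of 0.5 h and a pair of 6 h, times at which pairs of opposite sign occur.

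Lists called at other times were also read at 24 h. The 34 probes called higher at 18 h had a median of 1.58 at 24 h, and each was above 0 in all 5 pairs. The 19 probes called lower at 18 h had a median of -0.73 and a mean below 0 in each. At 24 h 0 of the 19 were called lower, against 0.0796% of all probes, so this count says nothing particular to them. Their median in replicate 2 was 0.004, with 0.157 on array a and -0.345 on array b. In the other pairs it was -0.60 to -0.93. The 30 probes called higher at 1 h had a median of 2.00 there and 0.41 at 24 h, where 29 of 30 had a mean above 0 and 8 were called. Of the 5 ATP synthase probes, 4 were called lower at 2 h and 3 at 18 h, and the median of the 5 at 2, 18, 24 and 30 h was -1.35, -0.99, -0.83 and -0.56. For Pc01Hc13 the differential at 24 h minus that at 18 h was 0.29 (95% interval -0.69 to 1.26) and minus that at 30 h -0.27 (-1.24 to 0.71).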

How the data were processed

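The authors deposited log2 intensities, 1 value per probe and dye channel, for 13818 probes of in-house cDNA arrays and 164 channels. Total RNA of 1 crab was reverse transcribed with amino-allyl dUTP and coupled to Cy3 or Cy5. The background correction, normalization and centring behind the values are not given in the sources used here, so how they affect the differentials is unknown. No value was missing. Depth in the sense of counts does not apply; the number of crabs and arrays limits the precision.

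From these values, both arrays of a crab were averaged and the control was subtracted from the heat stressed crab of equal replicate number. Limma 3.58.1 in R 4.3.3 (lmFit, eBayes) tested the 5 differentials of 24 h against 0, with Benjamini-Hochberg adjustment over all probes and a threshold of 0.05. Differences between time points were contrasts over all 41 pairs with 1 mean per time point. Equal replicate numbers pair the crabs because they share both arrays. The deviations of paired crabs from their group means correlated at 0.54 to 0.94. For unequal numbers the median was -0.15. Deviations within a group of 5 sum to 0, which largely fixes that value, so it is no separate comparison. Groups followed the titles. Figures were drawn with Python 3.11.15, pandas 2.3.3, numpy 2.4.6 and matplotlib 3.10.9.

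The probes named were the 6 with a gene name and, among called probes of 1 sign on all 10 arrays, the 2 that rose most and the 2 that fell most. The members, lists and tests were chosen with earlier results of these data known. Alternatives covered the pairing, the pairs in the fit, each dye orientation, the conflicting label, normalization, dim probes, the eBayes settings and each pair left out in turn. Slides and scan dates were not analysed here, and the columns used cover all 164 channels.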

Additional observations from a re-analysis of the deposited data

Results flagged for a closer look

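The differential of each named probe and the medians of the lists were examined for a pair far from the other 4, by the gap to the nearest pair over the whole range (above 0.71 for 5 pairs), 14 sets in all. Chance flags about 1 set in 20. One set passed, that of Pc03Ni14, named as ATP synthase subunit a: replicate 5 stood at -1.76 and the other pairs at -0.47 to -0.68. Its gap was 0.841 of the range. The level of Pc03Ni14 in replicate 5 was 11.7 in the heat stressed and 13.4 in the control crab, and both arrays of that pair gave it, with -1.90 on array a and -1.62 on array b.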

How the results depend on the processing

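All 34 called probes kept their sign in each of the 21 alternative settings, and no named result reversed, but the number of calls moved widely. The kept signs were largely fixed beforehand and are no test. Each of the 34 had 1 sign in all 5 pairs, so leaving out a pair could not turn its mean. Several other settings change only the spread and return the same mean. Counts are given as higher and lower. Without the replicate block limma called 13 and 0 over the 10 crabs, and 15 and 0 over all 82 crabs in 18 groups. With all 41 pairs sharing the spread it called 39 and 45, of which 20 and 3 were among the calls reported. Array a alone gave 14 and 29, and array b alone 188 and 124. With array b of replicate 5 read by its descriptions the counts were 0 and 0, and without that array 21 and 10. Without the dimmest 25% of probes there were 31 and 17, with the trend and robust settings of eBayes 41 and 18, and with each array as a value 57 and 97, which takes the arrays of a pair as partly separate samples. Leaving out a pair gave 0 to 22 higher and 0 to 15 lower, and 0 of the 34 probes were called in all 5 such fits. Of the probes reported, 1 of the 23 and 5 of the 11 were called in none of them. Without replicate 1 and without replicate 2 the falls called were largely other probes. Of these falls 4 of 15 and 4 of 13 were among the 11 reported, against 21 of 22 and 19 of 21 of the rises. All 3 falls called without replicate 4 and the 2 called without replicate 5 were among the 11, and so were 8 of 9 and 19 of 19 of the rises among the 23. Centring on the median (23 and 11), quantile normalization (21 and 10) and loess (26 and 10) stayed within 1.5 times. Of 3 settings added after seeing the data, a dye term gave 28 and 17, centring by plate 29 and 17, and leaving out array b of replicate 1 and array a of replicate 2 gave 23 and 2. Of the 6 probes with a gene name, 0 were called, except 1 with all 41 pairs, 1 with array b alone and 4 with each array as a value. Against 1 h, the 0 calls became 24 with only the pairs of both time points and 1 with trend and robust. They became 37 without the pairs left out for opposite signs, among them all pairs of 4 h. Against 18 and 30 h the calls stayed at 0. The cause of these moves was not tested.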

Other observations

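Probe identifiers carry a letter after their plate number (C, G, H, N, P or W), whose meaning is not given in the sources used here. The 2298 probes with the letter P, on 6 plates, lay slightly low at 24 h as a group, with a median differential of -0.115. Of them, 621 (27.0%) were lower and 7 higher at an unadjusted p under 0.05, against 474 (4.11%) and 270 of the 11520 other probes, so that P probes made up more of the 1095 low probes than all other letters together. By pair their median was 0.013, -0.23, -0.11, -0.16 and -0.11 in replicates 1 to 5, and the medians of the 6 plates ran from -0.21 to -0.066. Among the other letters N also lay low, with a median differential of -0.063. Of its 768 probes 96 (12.5%) were lower and 18 higher at an unadjusted p under 0.05. For C, G, H and W the share lower was 1.39 to 5.25%. With 2298 of the 13818 probes carrying P, 1 P probe was among the 11 called lower and 0 among the 23 called higher. Counts this small say nothing particular to P. Low P probes were not particular to 24 h. The letter P was carried by 299 of the 406 low probes of 4 h and 236 of the 380 of 0.5 h. Among the 30 h crabs it was 56 of 198, and in those of 18 h it was 18 of 588. The P median of the 30 h crabs, -0.110, was close to that of 24 h, with single pairs from -0.34 to 0.22. For 4 h the P median was -0.095. It ran from -0.062 to -0.045 for 0.5, 1 and 2 h. For 6, 12 and 18 h it lay above 0, from 0.032 to 0.039. The letter was noticed after brightness and plates had also been looked at, so this is a description with no test.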
